A study of Homo sapiens with 2 samples.

Results

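The surrogate light chain and V(D)J recombination genes VPREB1, IGLL1, VPREB3, RAG1, RAG2 and DNTT were examined for binding of PAX5. The cells were NALM6, a human leukaemia line of B-cell precursor type that is established in culture. Their peaks were chosen by position alone, as those with a summit inside an hg19 window around each gene or within 10 kb of either side of it. RAG1 and RAG2 are neighbours and share 1 window, so that the 6 genes gave 5 windows. These windows held 36 of the 21361 deposited peaks. The series consists of 1 sample precipitated with a PAX5 antibody from Abcam and of 1 input labelled as having no antibody. Both are labelled as NALM6 cells without treatment, grown for 4 days in RPMI free of phenol red with 10% serum and 2 mM glutamine. The title of the control bears the name RXL, and the peak caller's header names its control file by both PAX5 and RXL. Neither is explained in the sources used here, and every fold and background below rests on this control. The files hold binding only, so expression of the 6 genes was not analysed here.

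PAX5 is the paired-domain transcription factor that commits lymphoid progenitors to the B lineage. In pro-B and pre-B cells, RAG1 and RAG2 together form the recombinase that cuts at the recombination signals of immunoglobulin gene segments, and DNTT (terminal deoxynucleotidyl transferase, TdT) adds untemplated nucleotides at the joins. Once a heavy chain has been assembled, VPREB1 and IGLL1 (also called lambda 5) pair as the surrogate light chain, which takes the place of the conventional light chain in the pre-B-cell receptor. VPREB3 is related to VPREB1 and associates with immunoglobulin chains inside the cell, but it is not a chain of the surrogate light chain itself.

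The ChIP pool held 46190180 tags and the control 25416858. Each peak carries a pileup scaled to the depth of the control, from which whole ChIP reads over the summit were recovered, and a fold enrichment, the authors' ratio of that pileup to the local control background. With 1 sample of each kind and no replicates, no test between samples was made. All intervals are 95% intervals from the exact Poisson error of the ChIP reads with the control background held fixed. They cover counting error of the ChIP reads only. The control background, with a median of 10.0 reads over the 36 peaks, has a counting error that they leave out. Intervals of the fold are therefore too narrow, and gaps between them may not hold.

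Each of the 6 genes had a PAX5 summit close to the gene start used here, an edge of its window. The windows are given to the nearest kb, so the edge on the side of the gene start marks that start only to within about 1 kb. Other starts that a gene may have were not placed. The nearest summit lay within 1000 bp of the start-side edge for 6 of 6 genes. With 2 narrower limits chosen after seeing the data, it lay within 500 bp for 6 of 6 and within 250 bp for 3. These 2 limits are finer than the rounding of the edges. Of all 2 kb stretches tiled over chromosomes 1 to 22 and X, 1.31% held a summit. This length matches the 1000 bp limit only, and no share was computed for the narrower ones. The share over all gene starts was not computed, because no hg19 annotation was used. Stretches taken from the whole genome include gene-poor ones and are a wider background than gene starts.

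The start-site peaks ranged from strong to weak. At VPREB1 the summit lay 42 bp before the edge, with 231 ChIP reads and a fold of 10.1 (8.84 to 11.5). At IGLL1 it lay 362 bp inside, with 202 reads and a fold of 10.7 (9.32 to 12.3). These peaks also covered the window edge itself, which the start-site peaks of the other 4 genes did not. RAG2 followed with a summit 200 bp inside its edge, 123 reads and a fold of 5.41 (4.51 to 6.44). RAG1 had 64 reads and a fold of 4.42 (3.43 to 5.61) at 244 bp before its edge, and DNTT 63 reads and a fold of 3.82 (2.96 to 4.86) at 325 bp inside. In the RefSeq order the protein-coding gene before RAG1 is TRAF6, within 10 kb of it on GRCh38.p14. TRAF6 runs on the minus strand, so that its start faces that of RAG1. The peak at the RAG1 edge was not assigned to either gene. The weakest was VPREB3, with 64 reads and a fold of 3.29 (2.56 to 4.18) at 312 bp before its edge. The intervals of VPREB1 and IGLL1 overlapped each other and none of the other 4. Those of RAG2, RAG1 and DNTT formed an overlapping series, and VPREB3 overlapped RAG1 and DNTT but not RAG2. Against the whole list, 1.64% of all peaks had a fold as high as the start-site peak of VPREB1, 1.21% as high as that of IGLL1, 19.5% as high as that of RAG2 and 71.1% as high as that of VPREB3.

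The bases before the starts are shown for the 3 genes with the highest start-site folds, VPREB1, IGLL1 and RAG2, and for VPREB3, whose start-site peak was the weakest. They are the 250 bases ahead of each RefSeq start on GRCh38.p14, read along the gene: chr22:22244536-22244785 on the plus strand for VPREB1, chr22:23580291-23580540 on the minus strand for IGLL1, chr22:23754426-23754675 on the minus strand for VPREB3 and chr11:36598237-36598486 on the minus strand for RAG2. Since the peaks are on hg19, the sequences were not aligned to the summits. Capitals mark CAGGTG or its reverse complement, an E-box sequence that the E2A proteins can bind.
VPREB1: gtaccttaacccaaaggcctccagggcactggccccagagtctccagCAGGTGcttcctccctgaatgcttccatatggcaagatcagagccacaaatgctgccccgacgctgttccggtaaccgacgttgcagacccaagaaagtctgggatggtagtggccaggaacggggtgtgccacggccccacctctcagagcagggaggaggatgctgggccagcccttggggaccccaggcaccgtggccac
IGLL1: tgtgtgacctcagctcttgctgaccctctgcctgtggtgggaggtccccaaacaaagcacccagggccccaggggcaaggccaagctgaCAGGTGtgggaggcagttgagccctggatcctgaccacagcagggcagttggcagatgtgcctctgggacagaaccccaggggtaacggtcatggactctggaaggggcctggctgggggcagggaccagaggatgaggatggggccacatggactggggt
VPREB3: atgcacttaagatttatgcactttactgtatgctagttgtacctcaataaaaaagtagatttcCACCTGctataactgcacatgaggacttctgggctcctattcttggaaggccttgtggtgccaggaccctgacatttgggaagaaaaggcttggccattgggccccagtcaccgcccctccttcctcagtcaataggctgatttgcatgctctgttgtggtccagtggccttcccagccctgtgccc
RAG2: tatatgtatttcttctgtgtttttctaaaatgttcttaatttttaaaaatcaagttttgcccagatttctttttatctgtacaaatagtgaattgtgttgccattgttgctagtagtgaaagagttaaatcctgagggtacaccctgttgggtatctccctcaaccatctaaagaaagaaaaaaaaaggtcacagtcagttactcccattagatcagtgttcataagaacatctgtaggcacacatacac

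All 6 genes were found in the RefSeq promoter table, which holds 300 bases from 250 before to 50 after each start. The letters GCNTGAC, used here as the core of the PAX5 paired-domain site, occurred on neither strand in any of the 6, against 10.5% of all 35116 promoters of this length. The EBF1 letters CCCNNGGGA were likewise in none of the 6, against 8.86% of all. No match says only that these letters are not in this stretch. CAGGTG, on either strand, was present in 4 of the 6 (VPREB1, IGLL1, VPREB3 and DNTT) against 20.6% of all promoters. Counted in bases from the gene start, it began at -203 in VPREB1, at -161 in IGLL1 and at -75 in DNTT. VPREB3 held it at -187 and again just after the start. RAG1 and RAG2 had none. A match likewise shows only the letters, and binding of E2A proteins was not measured. No matches of different motifs overlapped, since only CAGGTG occurred. The upstream sequences also differed in base composition, from 34% G and C in RAG2 to 70% in RAG1, with a median of 58% over all promoters.

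**Figure D1:**
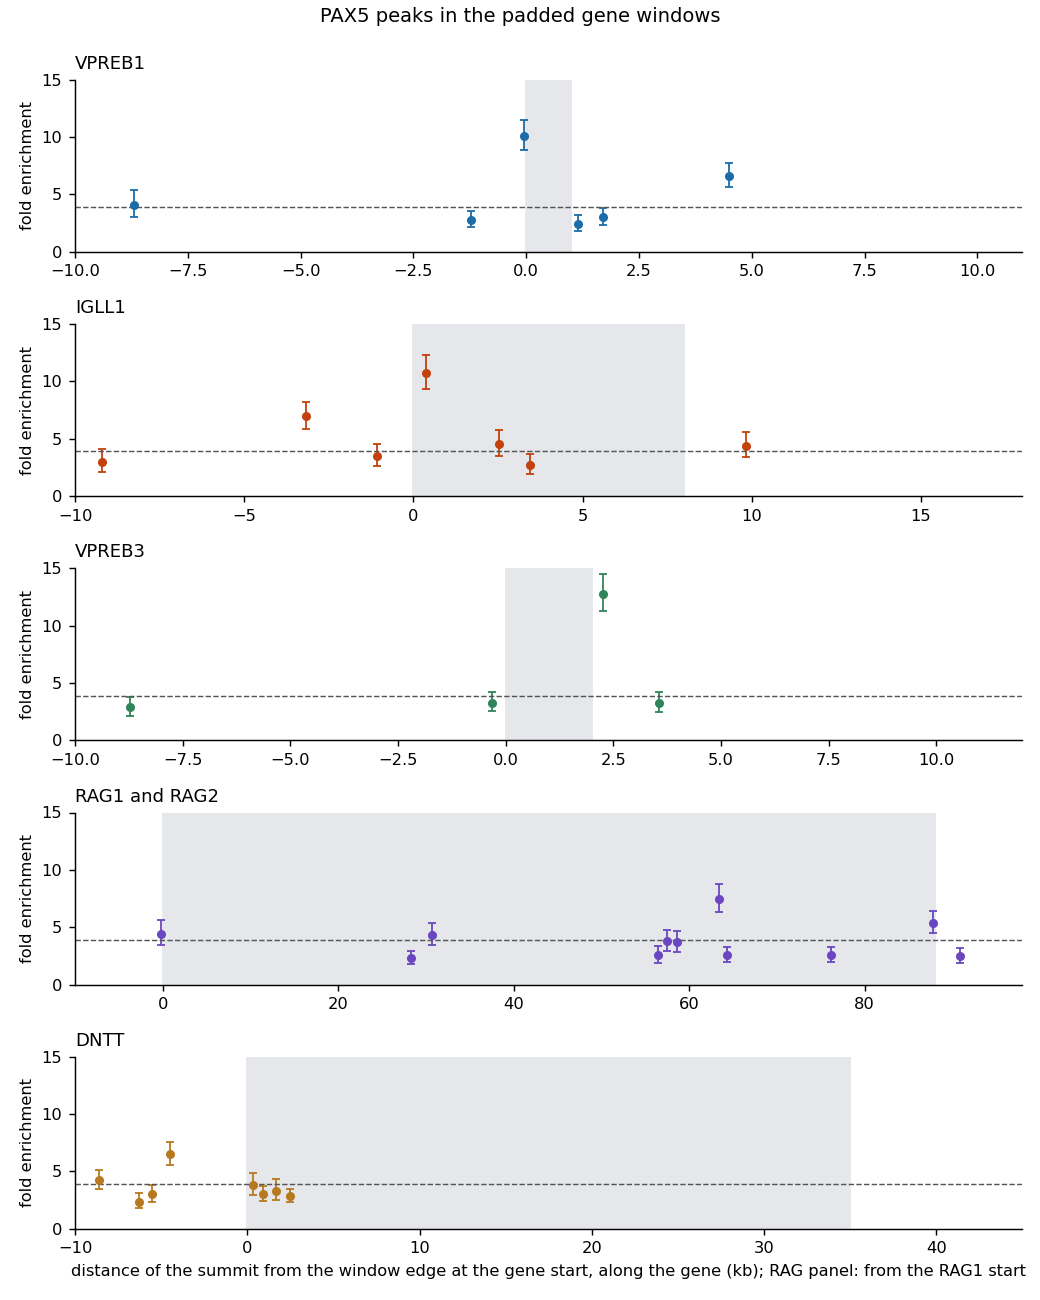
Fold enrichment of the 36 PAX5 peaks (points, with 95% counting intervals) by distance of the summit from the window edge at the gene start in kb, read along the gene, and for the shared panel from the RAG1 start. Grey shading marks the gene window and the dashed line the median fold of all peaks, 3.89; a high point stands at the start of VPREB1 and IGLL1, near the end edge of VPREB3, inside the RAG window and ahead of DNTT.

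VPREB1, which encodes the V-like chain of the surrogate light chain, lies within the immunoglobulin lambda locus on chromosome 22, at 22.599 to 22.600 Mb. Its padded window held 6 summits. The strongest peak spanned 1296 bp from 22598345 to 22599640, over the start-side edge. A separate peak from 22603156 to 22603785 had its summit 4500 bp from the start edge, past the gene end, with 156 reads (132 to 182) and a fold of 6.60 (5.62 to 7.71). This fold did not overlap that of the start-site peak. The other 4 peaks were weak, with folds of 2.44 to 4.08 and 47 to 59 reads. Of these, 3 flanked the start-site peak at gaps of 298 bp or less from the next peak, and the last stood alone ahead of the gene, at -8686 bp from the start edge.

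IGLL1, the constant-like chain of the surrogate light chain, showed the broadest occupancy of the 6 genes. Its window at 23.915 to 23.923 Mb held 7 summits. The peak at the gene start ran for 2697 bp from 23921030 to 23923726 and was the 11th widest of the whole list. A second broad peak of 1483 bp, from 23925022 to 23926504, had its summit at -3185 bp from the start edge, with 137 reads (115 to 162) and a fold of 6.94 (5.84 to 8.19). The fold of this upstream peak was below that of the start-site peak, with no overlap of their intervals. Peaks of lower fold continued on either side, at 4.51 and 3.51 next to the start-site peak. Along the window, peaks covered 24.4% of the padded 28 kb, the highest share among the 5 windows. IGLL1 has close relatives in RefSeq on the same chromosome (IGLL5 and the pseudogenes IGLL3P and IGLL4P), and the treatment of reads that fit several places was not stated in these sources.

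At VPREB3 the strongest peak lay at the end of the gene window, not at its start. The window at 24.095 to 24.097 Mb had 4 summits in its padding and none inside the rounded edges. The strongest, from 24093890 to 24095433 overlapped the end edge of the window. Its summit at 24094730 lay 270 bp beyond that edge and 2270 bp from the start edge, and since the edges are rounded to 1000 bp, it cannot be placed inside or outside the gene. It had 254 reads (224 to 287) over a control background of 10.0, and a fold of 12.8 (11.3 to 14.5). This was the highest fold of all 36 peaks, with rank 98 of 21361 by fold, 38 by −log10 q and 37 by reads. It was 3.89 times the fold of the next peak in the window, where the same ratio was 1.38 to 1.55 in the other 4 windows. In the RefSeq order the next protein-coding gene on this side is ZNF70, a zinc finger gene that also runs on the minus strand, so that its start faces the end of VPREB3. The peak was not assigned to either gene.

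The RAG1 and RAG2 window, at 36.532 to 36.620 Mb on chromosome 11, held 11 summits spread over 91.1 kb. The genes face each other, RAG1 on the plus and RAG2 on the minus strand, and the edges of the window serve as their starts. Other starts of either gene, inside the window or not, were not placed. The strongest peak stood at neither edge. It spanned 712 bp from 36595103 to 36595814, 63439 bp from the RAG1 edge, with 152 reads (129 to 178) and a fold of 7.46 (6.33 to 8.73). Its interval overlapped narrowly with that of the peak at the RAG2 start. Between 36588249 and 36596380, 5 of the 11 summits lay together, with the strongest among them and the others at folds of 2.54 to 3.79. A pair between 36559962 and 36562888 had folds of 2.30 and 4.34, and the remaining peaks inside the window and past the RAG2 edge had folds of 2.56 and 2.47. Exons were not placed, since no hg19 annotation was used here.

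DNTT, at 98.064 to 98.099 Mb on chromosome 10, carried its peaks at its 5′ end. All 8 summits of the padded window lay between -8586 and 2491 bp from the start edge, a span of 11.1 kb out of 55 kb. No peak was called in the rest of the gene window or for 174 kb past its end, where the next summit had a fold of 3.22. The strongest peak, from 98059224 to 98059904, had its summit at -4506 bp from the edge, with 163 reads (139 to 190) and a fold of 6.48 (5.53 to 7.54). This interval lay above that of each of the other 7 peaks, whose folds ran from 2.38 to 4.26. The 4 summits inside the gene had 53 to 92 reads. The last of them, at 98066491, had the highest control background of the 36 peaks, 17.0 reads, and a fold of 2.87 on 92 reads. In the RefSeq order the neighbour on the start side is BLNK, an adaptor of pre-B-cell receptor signalling, whose start faces that of DNTT.

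By their strongest peaks, the windows ranked VPREB3, IGLL1, VPREB1, RAG1 and RAG2, and DNTT, with folds of 12.8, 10.7, 10.1, 7.46 and 6.48. The intervals of VPREB3, IGLL1 and VPREB1 overlapped one another, and so did those of the RAG and DNTT windows. Overlap of separate intervals is not a test of a difference, and none was made. The lowest bound among VPREB3, IGLL1 and VPREB1 (8.84) lay just above the highest bound of the RAG and DNTT peaks (8.73). This narrow gap leaves out the counting error of the control background. By ChIP reads this gap closed, since the interval of IGLL1 (175 to 232) overlapped that of DNTT (139 to 190). The control background under these 5 peaks ranged from 9.45 reads at IGLL1 to 13.0 at DNTT. By reads alone the order within each group changed. VPREB1 (231) then came before IGLL1 (202), and DNTT (163) before the RAG window (152).

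**Figure D2:**
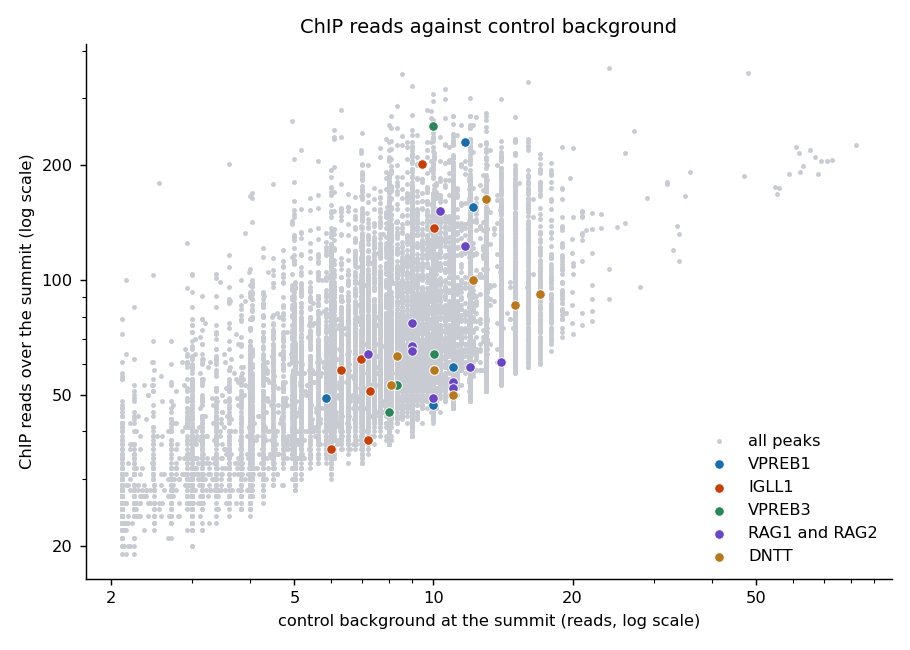
ChIP reads over the summit against the control background at the summit in reads, both on log axes, for all peaks (grey) and for the 36 peaks of the gene windows (coloured by window). The strongest peaks of VPREB3 (254 reads), VPREB1 (231) and IGLL1 (202) stand near the upper edge of the cloud at backgrounds of about 10.0, while most of the others lie in its lower part.

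High folds were limited to a few of the 36 peaks. Of them, 3 reached a fold of 10, 1 each in the VPREB1, IGLL1 and VPREB3 windows, against 1.72% of all deposited peaks. A fold of 5 was reached by 8 of 36 (22.2%), close to the 25.0% of all peaks. The median fold of the 36 was 3.41, below the 3.89 of the whole list, and without the strongest peak of each window it was 3.23. Their median ChIP reads, 61.5, were near the 61 of all peaks, while their median control background was 10.0 against 8.0. The part of this background in the lower fold was not tested. Widths of 1000 bp or more occurred at 4 of 36 peaks, again all in the windows of VPREB1, IGLL1 and VPREB3, against 3.22% of all peaks. They belonged to IGLL1 (2697 and 1483 bp), VPREB3 (1544 bp) and VPREB1 (1296 bp). The widest peak of the RAG and DNTT windows measured 852 bp.

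**Figure D3:**
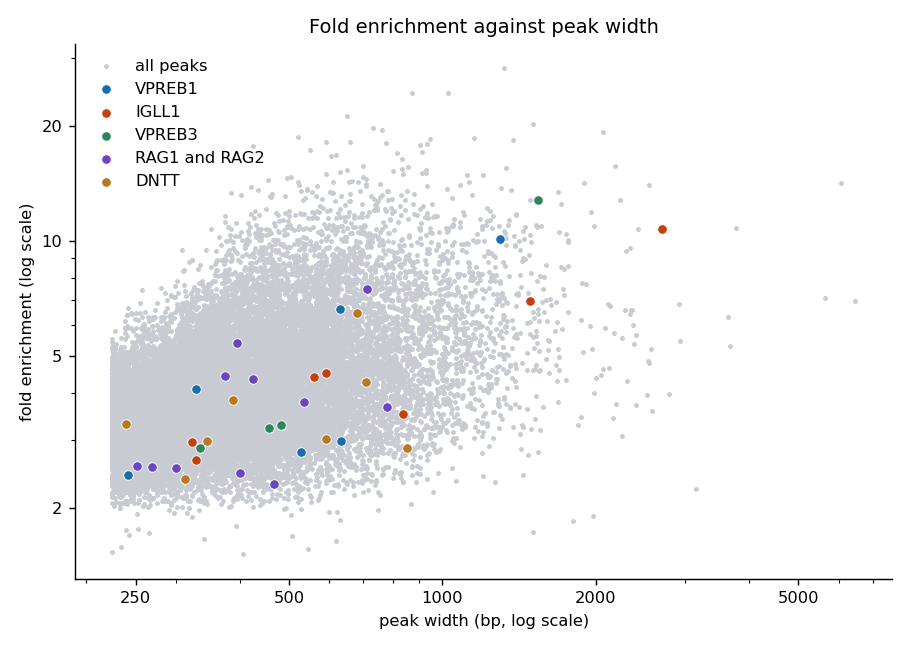
Fold enrichment against peak width in bp, both on log axes, for all peaks (grey) and the 36 peaks of the gene windows (coloured by window). The 4 coloured points wider than 1000 bp belong to VPREB1, IGLL1 and VPREB3, and all points of RAG1 and RAG2 and of DNTT lie below 1000 bp.

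Summits were dense in all 5 windows, also where the single peaks were weak. Within the RAG window they were spread unevenly, and the summit at the RAG1 edge lay 28524 bp from the next. Another summit lay within 2 kb of 23 of the 36 peaks (63.9%), against 24.6% of all peaks. Peaks covered 9.54% of the 234 kb of padded windows, against 0.355% of the effective genome size for the whole list. The VPREB1 window had 28.6 summits per 100 kb, IGLL1 25.0 and VPREB3 18.2, against 2.18 over chromosome 22. The RAG window had 10.2 against 0.742 over chromosome 11, and DNTT 14.5 against 0.805 over chromosome 10. These are 8.35 to 18.1 times the density of the chromosome. Part of the count came from closely split peaks. When peaks within 500 bp were merged, the 36 summits became 23, with 3 at VPREB1, 4 at IGLL1, 3 at VPREB3, 9 at the RAG genes and 4 at DNTT. With the chromosomes merged in the same way, the densities were 6.95 to 11.9 times those of the chromosome.

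Stretches of the same length, tiled over chromosomes 1 to 22 and X, give the background for these counts. For VPREB1, 10.1% of such stretches held any summit, 0.0533% held 6 or more and 0.237% held a fold as high as its strongest. For IGLL1 the shares were 12.8% with any summit, 0.061% with 7 or more and 0.233% with as high a fold. For VPREB3 they were 10.5%, 0.418% with 4 or more and 0.0704% with as high a fold. VPREB3 was thus the least crowded of the 3 and had the fold reached by the fewest stretches. For the RAG window, 31.4% of stretches held a summit, 0.303% held 11 or more and 4.1% reached its fold. For DNTT the shares were 20.7%, 0.212% with 8 or more and 3.59%. Among stretches with at least 1 summit, those with as many summits were 0.526% for VPREB1, 0.478% for IGLL1, 3.96% for VPREB3, 0.964% for the RAG window and 1.03% for DNTT. The stretches include unsequenced and gene-poor sequence, and the shares were higher on chromosome 22 alone, where 18.3% to 22.4% held a summit for the lengths of its 3 windows. There, 0.206% held as many summits as VPREB1, 0.329% as many as IGLL1 and 1.33% as many as VPREB3, and 1.07%, 0.822% and 0.172% reached their folds. On chromosome 10, 0.407% held as many as DNTT and 5.33% reached its fold. On chromosome 11, 0 of 1243 stretches held as many as the RAG window, and 3.30% reached its fold. The RAG window itself holds 11 summits there, so the fixed stretches divided its summits between them. Such division can lower each share with as many summits, since the gene windows were placed on the genes and the stretches were not.

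Beyond the padding the loci differed in their surroundings. IGLL1 stood alone, with no summit between 10 and 100 kb from its window on either side. VPREB1 had none between 10 and 20 kb, but 5 between 20 and 50 kb, all on its start side, with folds up to 6.50. Around VPREB3, 2 summits lay between 10 and 20 kb and 6 between 20 and 50 kb, with folds up to 5.48. The RAG window had none between 10 and 20 kb and 2 between 20 and 50 kb on the RAG2 side. DNTT had 4 between 10 and 20 kb and 2 between 20 and 50 kb, all on its start side, so that its peaks form the near end of a longer row of summits towards BLNK. Among the 36 peaks the one farthest from its window was in the IGLL1 window at 9218 bp (fold 2.97), and the first left out by the 10 kb limit lay 10.12 kb from the DNTT window (fold 3.34).

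**Figure D4:**
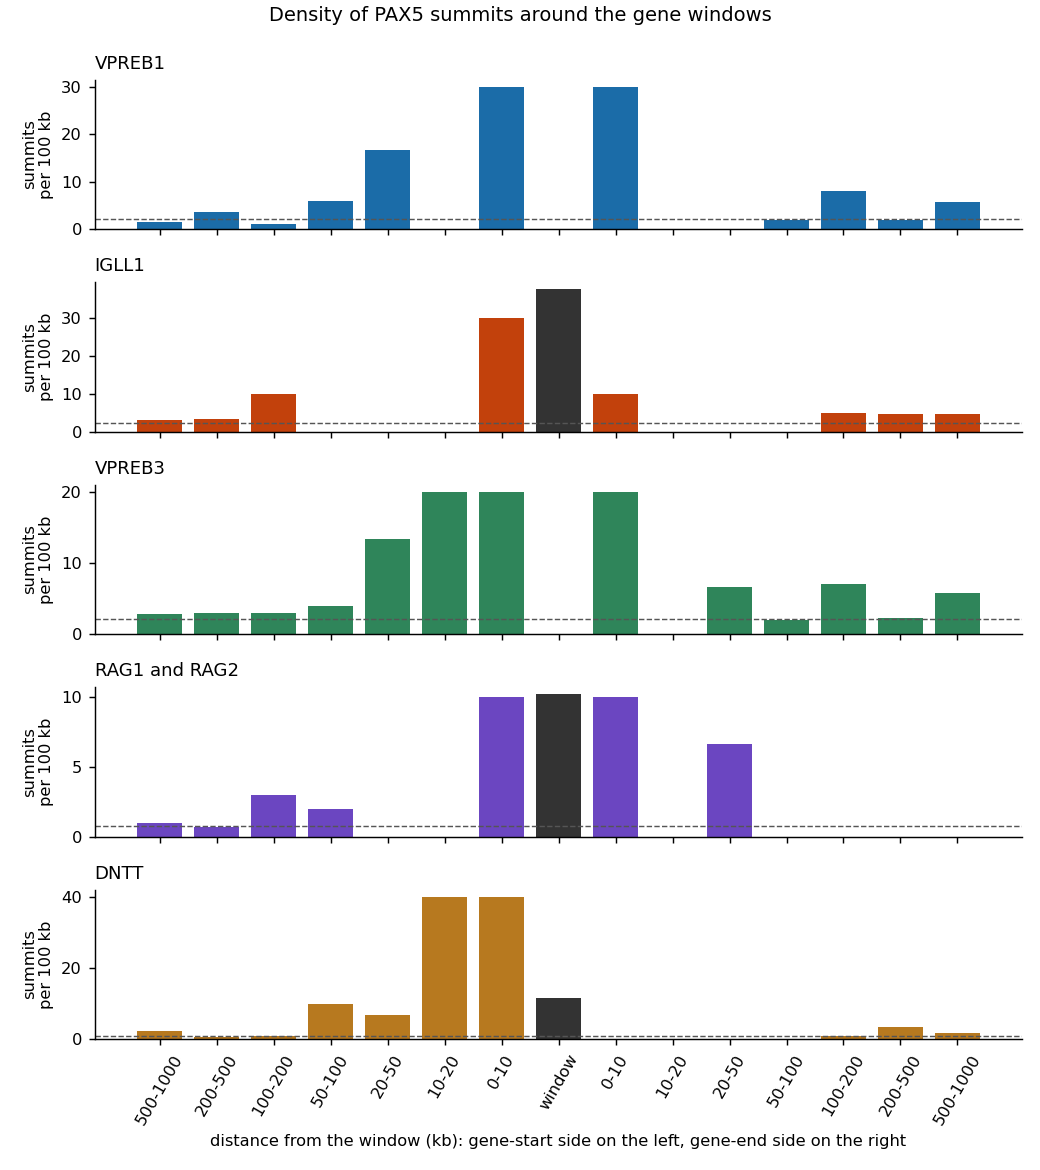
Density of PAX5 summits per 100 kb in bands of distance from each gene window in kb, with the gene-start side on the left, the gene-end side on the right and the window itself in black. The dashed line is the mean density of the chromosome; the bars at 0 to 10 kb exceed it on at least 1 side of every window, and IGLL1 has empty bands from 10 to 100 kb.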

How the data were processed

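PAX5 binding was measured by ChIP-seq in NALM6 against an input control. The submitters' processing notes name BWA, MACS2 and hg19. The value 0.015 stands with MACS2 in the sample records, and its meaning is not explained. MACS 2.1.1.20160309 called the peaks, per the file headers, from 1 pooled ChIP file and 1 combined control file at a q-value of 0.05, with 50 bp tags extended to 225 bp and 1 tag kept per position. The number of libraries in each pool was not stated, and a pool hides their spread. The deposited pileup signal, scaled by 0.550 to the control depth, was divided by that scale to give whole ChIP reads (100% of peaks within 0.006 pileup units). The deposited fold is a ratio with a pseudocount of 1, from which the control background was recovered. The deposited −log10 q served for ranking only. Positions in the deposited peak table are on hg19 and count from 1.

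Summits were assigned to the 5 windows, taken to the nearest kb, with 10 kb on each side. Backgrounds are non-overlapping stretches of equal length from base 1 of each chromosome. Promoters, strands and neighbouring genes come from RefSeq (GRCh38.p14), and no coordinate was moved between builds. Other genes of the pre-B-cell receptor pathway were not placed, since no hg19 annotation was used here. All 6 genes and every peak in their windows are named or counted. The genes and windows were chosen with earlier results of these data known. Read recovery, tiling and intervals were tested on simulated data. Alternatives in padding, thresholds, merging, ranking and background are in the closing section. Python 3.11.15, numpy 2.4.6, scipy 1.17.1, pandas 2.3.3 and matplotlib 3.10.9 were used.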

Additional observations from a re-analysis of the deposited data

How the results depend on the processing

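Of the 85 values recomputed, 42 stayed within the limits set for them. The 36 summits became 16 without padding, 57 with 50 kb, 23 at a −log10 q of at least 5, 8 at a fold of at least 5 and 23 after merging peaks within 500 bp. With 5 and 20 kb, any overlap, or the cleaned list, the total lay between 30 and 42. By window, no padding left 0 for VPREB1, 3 for IGLL1, 0 for VPREB3 and 4 for DNTT, and 5 kb left 5 for DNTT. With 50 kb there were 11, 12 and 14 for VPREB1, VPREB3 and DNTT. The stricter q left 3 for VPREB1 and 6 for the RAG window. The fold limit left 2, 2, 1, 2 and 1 for VPREB1, IGLL1, VPREB3, RAG and DNTT, and merging 3, 4 and 4 for VPREB1, IGLL1 and DNTT. Over the genome mean background, by construction higher, the strongest folds were 41.1, 36.0, 45.1, 27.1 and 29.1 in the same order of windows, so that DNTT passed RAG and VPREB1 passed IGLL1. Ranked by −log10 q or reads, VPREB1 was at place 2 and IGLL1 at 3, and by reads DNTT at 4 and RAG at 5; VPREB3 led throughout. Its rank of 98 was 38 by −log10 q and 37 by reads. Stretches of the same chromosome held a summit in 18.3%, 22.4%, 19.2%, 33.4% and 24.6% of cases, and 5.30% of promoters held the PAX5 core on the gene strand alone. Within 250 bp, 3 of 6 gene starts had a summit, and within 500 bp 6 of 6, both limits chosen after seeing the data. The causes were not tested. Within each group of windows the intervals of the strongest folds overlapped, and their order was not tested. No spread between libraries can be given.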

Other observations

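Beyond the padded windows, summits with folds above 5 lay within 50 kb of the RAG genes, VPREB1, DNTT and VPREB3. Past the RAG2 start, a peak with its summit at 36641274 on chromosome 11 lay 21.3 kb beyond the window edge and had 159 ChIP reads and a fold of 7.09, close to the 7.46 of the strongest peak inside the window. A second at 36652403 followed with 91 reads and a fold of 3.93. In the RefSeq order the protein-coding gene on this side is IFTAP, on the plus strand and within 10 kb of RAG2 on GRCh38.p14. Whether IFTAP overlaps RAG2 or these peaks was not determined. On the start side of DNTT, a peak with its summit at 98047665 on chromosome 10 lay 16.3 kb from the window and had 148 reads and a fold of 5.50, and 5 further summits within 50 kb had folds of 2.11 to 3.34. On the start side of VPREB1, within the immunoglobulin lambda locus, 5 summits between 28.4 and 49.0 kb from the window had folds of 2.58 to 6.50. Around VPREB3, 8 summits had folds of 2.12 to 5.48, the highest with 48 reads on the gene-end side at 39.1 kb from the window. Its interval (4.10 to 7.20) overlapped that of the DNTT peak (4.66 to 6.44). These summits were not assigned to genes.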
